A study of Homo sapiens with 2 samples.

Results

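Contactins and contactin-associated proteins (Caspr proteins) were described gene by gene in human cerebral organoids. The group comprised the 9 genes CNTN1, CNTN2, CNTN3, CNTN4, CNTN5, CNTN6, CNTNAP2, CNTNAP4 and CNTNAP5, matched by symbol among 62704 annotated genes in each of 2 libraries. They are a selection from the family, and other genes of these names are given beside them. All 9 had transcripts in both libraries, from 1245 of CNTN6 to 72071 of CNTNAP2 in cells and from 379 to 50596 of the same genes in nuclei.

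The organoids were grown from H9, an established human embryonic stem cell line, and profiled by split-seq, which marks the RNA of fixed cells or nuclei by rounds of pooling and barcoding in wells. The cells library pooled control cerebral organoids (CO) of days 45, 55 and 70 and constrained organoids (CONS) of day 55. It also held organoids that were dissociated on day 45 and reaggregated (DISS), collected on days 48, 55 and 70. The nuclei library held day 45 CO, isolated either from intact organoids or from suspensions of single cells, and no altered organoids. Agarose for the constraint was applied on day 13. Every barcode of a library carries the same sample name in the metadata, so conditions and days could not be separated, each library was 1 sample, and no p-value is given.

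Contactins are adhesion molecules of the immunoglobulin superfamily that are held on the outer membrane by a GPI anchor. They bind other adhesion molecules, receptor phosphatases and matrix proteins on the same or a facing cell, and guide axon growth and synapse formation. Caspr proteins are transmembrane adhesion proteins. Beside nodes of Ranvier, CNTN1 pairs with CNTNAP1 at paranodes, and CNTN2 pairs with CNTNAP2 at juxtaparanodes, where voltage-gated potassium channels gather.

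A barcode entered the analysis if it held over 500 genes and over 1000 transcripts, of which mitochondrial ones made up no more than 20%. This left 20178 cells with a median of 2615 transcripts and 14228 nuclei with a median of 3890. Of the kept barcode names, 99 occurred in both libraries. Scrublet, run with 5% and 3% of doublets expected, marked 0 barcodes in cells and in nuclei. Whether it found no doublets or set no working threshold is not known, so its calls were not used and doublets were kept. Clusters were built without the family and its partner genes and were named from fixed markers. In cells and nuclei, these gave 2115 and 3486 RG-like (radial glia) barcodes, 2808 and 2241 dividing progenitor-like, 1345 and 502 IPC-like (intermediate progenitor cell), and 1499 and 2524 excitatory neuron-like. The smaller classes were Cajal-Retzius-like with 210 and 108, cortical hem-like with 1023 and 932, and choroid plexus-like with 481 and 346 barcodes. The remaining 10697 cells in 13 clusters and 4089 nuclei in 7 clusters had no name, and no cluster qualified as inhibitory neuron-like. The choroid plexus-like clusters were led by cilia genes such as CFAP47, SPAG17 and ARMC3, although 7 of 8 choroid markers passed in cells. In nuclei, 2 RG-like clusters with 1518 barcodes were led by heat-shock or immediate-early genes.

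The genes differ in length, which matters for nuclear RNA. On GRCh38 (GENCODE 44), CNTNAP2 spans chr7:146116002-148420998 (2305 kb), CNTN5 spans chr11:99020949-100358885 (1338 kb), CNTN4 spans chr3:2098813-3057959 (959 kb) and CNTNAP5 spans chr2:124025287-124921219 (896 kb). CNTN1 at chr12:40692439-41072415, CNTN3 at chr3:74262568-74614659, CNTN6 at chr3:1092658-1404217 and CNTNAP4 at chr16:76277278-76560757 cover 380 kb, 352 kb, 312 kb and 283 kb. CNTN2 at chr1:205042937-205078289 covers only 35.4 kb. CNTN6 and CNTN4 lie on the same strand of chromosome 3, and CNTN3 lies on the other strand far from them. Transcripts counted to antisense genes inside a member came to at most 2.35% of that member's own count. CNTNAP4 is overlapped on its own strand by other annotated genes with 787 counts in cells and 299 in nuclei, beside 2504 and 1737 of its own, so its level is uncertain to that extent.

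Promoter windows of RefSeq (GRCh38.p14), from 250 bases before to 50 bases after a start, were found for 9 of 9 members, with 12 starts in all. Those of the genes with the most different patterns below are shown, with any match to CANNTG, the letters bound by neurogenic basic helix-loop-helix factors, in capitals (the pattern is its own reverse complement, so both strands give the same matches).
CNTNAP2, chr7:146116551-146116850, plus strand: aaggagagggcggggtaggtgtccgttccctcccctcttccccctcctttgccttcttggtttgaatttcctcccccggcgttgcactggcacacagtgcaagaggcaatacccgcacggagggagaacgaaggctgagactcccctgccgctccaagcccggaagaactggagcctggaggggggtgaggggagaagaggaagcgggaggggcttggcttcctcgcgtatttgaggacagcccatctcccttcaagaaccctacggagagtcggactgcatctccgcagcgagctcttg
CNTN1, first start, chr12:40827934-40828233, plus strand: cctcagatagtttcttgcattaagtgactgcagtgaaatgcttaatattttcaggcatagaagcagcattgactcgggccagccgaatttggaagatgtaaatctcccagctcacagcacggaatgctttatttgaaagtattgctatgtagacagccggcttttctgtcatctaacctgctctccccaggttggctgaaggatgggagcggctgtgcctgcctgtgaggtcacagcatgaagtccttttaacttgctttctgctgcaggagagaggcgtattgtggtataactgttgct
CNTN2, first start, chr1:205042699-205042998, plus strand: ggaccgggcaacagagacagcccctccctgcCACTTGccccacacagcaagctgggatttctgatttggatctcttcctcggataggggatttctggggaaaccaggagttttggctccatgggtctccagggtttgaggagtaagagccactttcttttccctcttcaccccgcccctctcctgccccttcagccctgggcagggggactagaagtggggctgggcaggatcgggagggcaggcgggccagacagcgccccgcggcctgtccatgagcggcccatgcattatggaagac
CNTN3, chr3:74614610-74614909, minus strand: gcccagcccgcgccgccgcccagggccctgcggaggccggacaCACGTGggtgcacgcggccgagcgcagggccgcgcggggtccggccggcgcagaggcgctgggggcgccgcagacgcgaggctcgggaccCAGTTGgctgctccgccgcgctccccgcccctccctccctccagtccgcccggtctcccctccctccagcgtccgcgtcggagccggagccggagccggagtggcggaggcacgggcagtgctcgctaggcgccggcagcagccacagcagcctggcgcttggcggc
In these 4 windows, those of CNTNAP2 and CNTN1, the members with the highest levels per exon length in neuron-like barcodes (below), held 0 matches. That of CNTN2 held 1 match, at -219 from the start, and that of CNTN3 held 2, at -207 and -117. At their second starts, not printed, CNTN1 held 4 matches and CNTN2 held 1, at -177. The window of CNTN3 was 80.3% G or C with 43 CpG pairs, the first one of CNTN1 47.0% with 6, and those of CNTNAP2 and CNTN2 both 61.7% with 16 and 9. Of the members' 12 windows 66.7% held a match, and 68.7% of all 35116 promoter windows in the RefSeq set did, and the median of all was 58.7% G or C with 14 CpG pairs. A match describes letters and is not evidence of binding.

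Levels are given in CPM, the counts of a gene per 1000000 counts of all genes, summed over the barcodes of a type. Intervals are 95% exact Poisson intervals of the count and cover counting error only, and the SD is over the 8 technical sub-libraries of the cells or the 2 of the nuclei. Barcodes of 10 to 100 transcripts were summed as background, taken to stand for the free RNA that can enter any barcode. Whether they hold free RNA was not tested. In cells, CNTN1 stood at 116 CPM in the background and 115 over all kept barcodes, and CNTN4 at 86.8 and 67.4. A level below the background can therefore also be one below the average of the library. Fewer cells of a kind within a type and fewer transcripts per cell cannot be told apart in such sums.

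CNTNAP2, which clusters potassium channels along axons, had the most counts of the 9. It reached 952 CPM (939 to 965, SD 132) in excitatory neuron-like cells and 2149 CPM (2124 to 2174, SD 42.7) in the corresponding nuclei. In cells the order went on with 883 in Cajal-Retzius-like, 520.3 in IPC-like, 329 in cortical hem-like, 192 in dividing progenitor-like, 179 in choroid plexus-like and 141 in RG-like barcodes. Only the dividing progenitor-like and choroid plexus-like neighbours had overlapping intervals. In nuclei it went from 783 in Cajal-Retzius-like through 346 in cortical hem-like, 135 in choroid plexus-like, 128 in dividing progenitor-like and 93.4 in RG-like to 87.1 in IPC-like barcodes. In nuclei the intervals of choroid plexus-like and dividing progenitor-like and those of RG-like and IPC-like barcodes overlapped. IPC-like barcodes thus held the gene at the third level in cells and, with RG-like ones, at the bottom of the order in nuclei. The background held 497 and 721 CPM, above all types but the neuronal ones and the IPC-like cells.

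CNTN1, an axonal contactin that binds tenascin-R and PTPRZ1, was highest in the neuronal types among those with a name. Excitatory neuron-like barcodes held 265 CPM (258 to 272, SD 22.1) in cells and 446 CPM (435 to 457, SD 3.13) in nuclei, and Cajal-Retzius-like barcodes 186 and 268. The other types lay between 19.4 in choroid plexus-like and 43.1 in cortical hem-like cells, and between 9.52 in IPC-like and 51.7 in cortical hem-like nuclei. All of them were below the background of 116 and 143 CPM. Barcodes without a name also held the gene, at 136 CPM over the unnamed clusters of the cells. An unnamed cluster of 1990 cells, led by LINC01965 and PTN, drew 79.4% of its barcodes from a single well. It held CNTN1 at 213 CPM in that well and 191 in the others. An unnamed cluster of 775 nuclei, led by HIF1A-AS3, held it at 330 CPM in its largest well and 349 in the others.

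CNTN2, known as TAG-1 and carried by newly growing axons, had its highest level outside the excitatory neuron-like class. In cells it stood at 108 CPM (94.7 to 123, SD 56.9) in Cajal-Retzius-like and 83.5 CPM (78.5 to 88.8, SD 16.9) in IPC-like barcodes, against 20.3 in excitatory neuron-like and 5.41 in RG-like barcodes. In nuclei the IPC-like level was 29.5 CPM (22.7 to 37.6, SD 21.7) and the Cajal-Retzius-like level 26.6, with overlapping intervals, against 13.7 in excitatory neuron-like, 13.1 in cortical hem-like and 2.96 in RG-like barcodes. The background held 22.9 and 18.3 CPM.

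CNTN3 was highest outside the neuronal types. Choroid plexus-like barcodes held 322 CPM (308 to 337, SD 58.4) in cells and 535 CPM (512 to 559, SD 31.8) in nuclei. Cortical hem-like barcodes followed with 233 and 312, then RG-like with 107 and 73.4, and excitatory neuron-like with 53.3 and 59.6. IPC-like barcodes had the lowest level in both libraries, 24.6 and 10.4 CPM. The background was 90.2 and 96.7 CPM, below the choroid plexus-like and cortical hem-like levels.

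CNTN4, a contactin that binds APP and PTPRG, was highest in Cajal-Retzius-like barcodes, at 525 CPM (494 to 557, SD 160.4) in cells and 734 CPM (669 to 804, SD 54.0) in nuclei. Cortical hem-like barcodes held 157 and 135, and choroid plexus-like 121 and 165. The lowest levels in both libraries were those of IPC-like barcodes, 32.2 and 34.5, whose intervals overlapped those of RG-like barcodes at 36.7 and 38.7. Excitatory neuron-like barcodes lay between, at 49.8 and 122 CPM, and the background held 86.8 and 134.

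CNTN5 and CNTN6 are the contactins known as NB-2 and NB-3, and CNTN6 had the fewest counts of the 9. CNTN5 was highest in Cajal-Retzius-like barcodes, at 83.1 CPM (71.2 to 96.4, SD 62.2) in cells and 76.7 CPM (56.7 to 101, SD 23.8) in nuclei, where the interval overlapped that of excitatory neuron-like barcodes. It stood at 35.9 and 61.0 in excitatory neuron-like and at 15.1 and 9.83 in RG-like barcodes. The cells background of 46.7 CPM was above all types but the Cajal-Retzius-like one. In nuclei the background of 81.3 CPM was above all 7 types. CNTN6 had a cells background of 11.1 CPM, above its 9.23 in excitatory neuron-like cells. CNTN6 reached 41.5 CPM in Cajal-Retzius-like cells, with an SD of 45.8 that exceeded the level. Of those 87 counts, 41 came from 1 barcode (47.1%). In nuclei it was highest in excitatory neuron-like barcodes at 13.5 CPM (11.6 to 15.6), with 2 counts in Cajal-Retzius-like and 0 counts in IPC-like nuclei.

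CNTNAP5, a Caspr protein of little known function, was highest in Cajal-Retzius-like barcodes, at 452 CPM (423 to 481, SD 274) in cells and 836 CPM (767 to 910.0, SD 160.0) in nuclei. Excitatory neuron-like barcodes held 93.4 and 246, IPC-like 79.0 and 36.3, and RG-like 19.3 and 11.5 CPM, beside a background of 128 and 129.8. CNTNAP4, a Caspr protein of interneuron synapses, was highest in cortical hem-like barcodes, at 53.2 CPM (49.1 to 57.6, SD 7.88) and 54.5 CPM (49.1 to 60.4, SD 5.26). It stood at only 7.67 and 4.20 CPM in excitatory neuron-like barcodes. Its Cajal-Retzius-like level of 51.6 CPM in cells drew 46.3% of its counts from 1 barcode. Across the 9 members, 7 had the same leading type in both libraries, the exceptions being CNTN2 and CNTN6. The share of all genes with the same leading type was not counted, so no trait of the members is read from this. For CNTN5 in nuclei and CNTNAP4 in cells, the interval of the leading type overlapped that of the next.

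**Figure D1:**
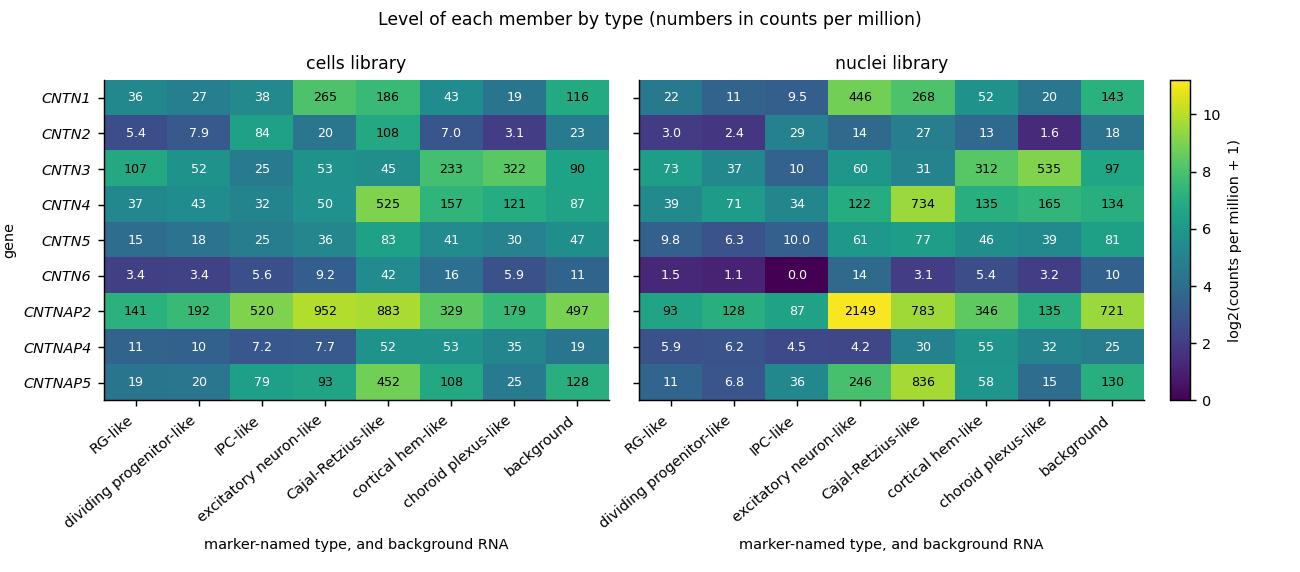
Level of each member (rows) in 7 marker-named types and in the background RNA (columns) of the cells (left) and nuclei (right), with the number in each square in CPM and the colour on a log2(CPM + 1) scale. CNTNAP2 is brightest in excitatory neuron-like barcodes, at 952 and 2149, and CNTN3 in choroid plexus-like barcodes, at 322 and 535.

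Between genes, levels in excitatory neuron-like barcodes were compared per kb of exon. CNTNAP2 stood at 58.1 CPM per exon kb in cells and 131 in nuclei, above CNTN1 at 34.6 and 58.3, and CNTNAP4 was last at 0.958 and 0.525. Per 100 kb of gene span, CNTN1 came first instead, at 69.7 and 117 against 41.3 and 93.2 for CNTNAP2. The short gene CNTN2, with ranks 2 in cells and 3 in nuclei per span, had rank 8 per exon kb in both.

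The first comparison asked how the family differs between excitatory neuron-like and RG-like barcodes. A member was called when its ratio of CPM was at least 2-fold, among genes with at least 20 counts in the groups together. In cells, 6 of 9 members were called higher and 1 lower in neuron-like barcodes, where 7.75% and 7.89% of all genes were called. The median log2 ratio of the members was 1.44, beside -0.09 over all genes. CNTN1 was 7.32-fold higher (6.70 to 8.03), CNTNAP2 6.74-fold (6.44 to 7.05), CNTNAP5 4.84-fold (4.27 to 5.50) and CNTN2 3.75-fold (2.94 to 4.83). CNTN6 and CNTN5 were 2.71-fold (1.98 to 3.79) and 2.37-fold (2.04 to 2.77) higher. Their neuron-like levels, 9.23 and 35.9 CPM, lay below the background of 11.1 and 46.7. Those of CNTN2 and CNTNAP5 also lay below it, and those of CNTN1 and CNTNAP2 above. CNTN3 had a ratio of 0.498 (0.461 to 0.537), at the threshold for lower, and 17 of 22 alternative settings kept that call. CNTN4 and CNTNAP4 had ratios of 1.36 and 0.704 and were not called.

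In nuclei, 7 of 9 members were called higher and 0 lower, with 11.1% and 23.0% of all genes called, and the median log2 ratio was 2.63 for the members beside -0.34 over all genes. CNTNAP2 was 23.0-fold higher (21.7 to 24.5), CNTNAP5 21.5-fold (18.0 to 25.8) and CNTN1 20.4-fold (17.9 to 23.2). CNTN6, CNTN5, CNTN2 and CNTN4 were 9.14-, 6.21-, 4.65- and 3.14-fold higher. The neuron-like nuclear levels of CNTN2, CNTN4 and CNTN5 lay below the background, and those of CNTN1, CNTNAP2 and CNTNAP5 above it. The ratios of CNTN3 and CNTNAP4 were 0.812 (0.736 to 0.896) and 0.711 (0.490 to 1.03). The higher calls of both libraries were kept in every alternative run, apart from that of CNTN5 in cells, which 21 of 22 kept. The size of the nuclear ratios was less firm: with the background profile subtracted at 10% of the transcripts of each type, the ratios of CNTNAP2 and CNTNAP5 reached 97.6 and 895. For CNTNAP5 the subtraction left 0 counts in RG-like nuclei, so 895 stands against a floor of 3 counts and is no measured ratio. Excitatory neuron markers summed to 2682 CPM in RG-like cells and 3354 in RG-like nuclei, against 6211 and 7219 in neuron-like barcodes, and RG markers to 1478 in neuron-like cells but 417 in neuron-like nuclei. The part of these marker levels in the ratios was not tested.

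**Figure D2:**
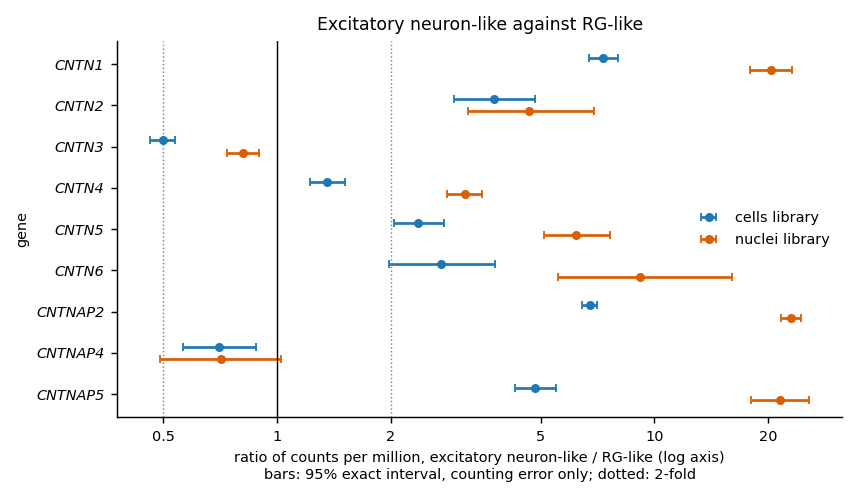
Ratio of CPM between excitatory neuron-like and RG-like barcodes for each member (log axis), in cells (blue) and nuclei (orange), with bars for the 95% exact interval of counting error and dotted lines at 2-fold. CNTN1, CNTNAP2 and CNTNAP5 lie furthest right, at 20.4, 23.0 and 21.5 in nuclei, and CNTN3 and CNTNAP4 lie left of 1 in both libraries.

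The labels do not say which sample or organoid a first-round well of the barcoding held, and wells are used here only to show the spread within a library. In the 17 wells of the cells with at least 20 barcodes of both types, CNTN1, CNTN2 and CNTNAP2 were higher in neuron-like barcodes in 17, CNTN5 and CNTNAP5 in 16 and CNTN6 in 15, and CNTN3 was lower in 16. CNTN4 was higher in 8 and lower in 9. In the 12 wells of the nuclei, CNTN1, CNTN5, CNTN6, CNTNAP2 and CNTNAP5 were higher in all 12, CNTN4 in 11 and CNTN2 in 10, while CNTN3 was higher in 7 and lower in 5. The neuron-like level of CNTNAP2 had a lowest, median and highest well of 513, 950.0 and 2503 CPM over 23 wells of the cells and 1140.0, 1807 and 2979 over 12 of the nuclei. RG-like wells held 86.5, 146 and 224 and 72.2, 101 and 149, so the types did not overlap between wells for this gene. CNTN1 had neuron-like wells at 62.9, 259.8 and 381 in cells, and RG-like wells at 6.42, 29.9 and 87.0, which overlapped. The wells of CNTNAP5 in neuron-like barcodes stood at 6.53, 60.1 and 271 in cells, a 41.4-fold range, but at 160.3, 207 and 362 in nuclei.

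The other genes of the pathway, from a fixed list of 24 binding partners and scaffold proteins, were compared in the same way. In cells 9 of 24 were called higher in neuron-like barcodes and 1 lower, beside 7.75% and 7.89% of all genes. The median log2 ratio was 0.61, beside -0.09 over all genes. Among the adhesion partners, L1CAM was 14.4-fold higher, NFASC, the paranodal and nodal neurofascin, 7.30-fold, and NRCAM 4.07-fold. Among matrix and axonal scaffold partners, TNR, the tenascin-R that CNTN1 binds, was 9.33-fold higher, ANK3 (ankyrin-G) 6.05-fold, SPTBN4 5.10-fold and EPB41L3, the 4.1B protein that anchors Caspr proteins, 3.64-fold. NOTCH1, a receptor that contactins can bind, had a ratio of 0.237. In nuclei 13 of 24 were called higher and 2 lower, beside 11.1% and 23.0% of all genes, and the median was 1.49, beside -0.34. The nuclear ratios of L1CAM, TNR and ANK3 were 36.5, 25.7 and 13.0. CHL1 and NOTCH1 were the lower ones, at 0.474 and 0.0891. The potassium channel gene KCNA1, whose protein CNTNAP2 clusters, had only 43 and 20 counts in neuron-like cells and nuclei and 2 and 0 in RG-like ones.

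The family genes outside the 9 had other patterns. CNTNAP1 had a ratio of 1.84 in cells and 3.55 in nuclei, but genes on its other strand held 87.6% and 56.9% as many counts. CNTNAP3, CNTNAP3B and CNTNAP3C are near-identical copies whose reads cannot be assigned with certainty, and their ratios were 0.715, 0.518 and 0.904 in cells and 0.471, 0.270 and 0.397 in nuclei.

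IPC-like barcodes were set beside excitatory neuron-like ones, since these types follow each other in development. This comparison and the 3 that follow, each made in both libraries, were added after the clusters had been seen. In cells 1 member was called higher in IPC-like barcodes and 2 lower, where 3.28% and 8.09% of all genes were called. CNTN2 was 4.12-fold higher (3.68 to 4.61), while CNTN1 had a ratio of 0.144 (0.131 to 0.158) and CNTN3 one of 0.462 (0.406 to 0.526). The call of CNTN3 was kept in 15 of 23 alternatives, and its ratio reached 1.83 over 5000 transcripts. In nuclei CNTN2 was again the only member called higher, at 2.15-fold (1.59 to 2.86), a call that 8 of 15 alternatives kept. The lower calls were 7 of 9, with 14.5% and 17.5% of all genes called. The ratio of CNTN1 was 0.0213 and that of CNTNAP2 0.0405, and the 0 counts of CNTN6 made it at least 9.93-fold lower against a floor of 3 counts.

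The IPC-like classes were not made alike in the libraries. RG markers summed to 2427 CPM in IPC-like cells and 5174 in IPC-like nuclei, and dividing markers to 785 and 1392. IPC markers summed to 867 and 777, and excitatory neuron markers to 3687 and 2943. Cajal-Retzius markers, among them EBF2, summed to 412 and 483 in IPC-like cells and nuclei, beside 49.4 and 153 in excitatory neuron-like ones. The part of these marker levels in the ratios was not tested. In cells, 1210 of the 1345 IPC-like barcodes formed a cluster whose 10 leading genes included EBF2, PLXNA4, LZTS1 and CNTN2 itself, with 92.6 CPM of CNTN2 and 577 of CNTNAP2. The other 135 formed a cluster with dividing markers, with 21.9 and 136 CPM. In nuclei the cluster that shared 6 of 10 leading genes with the larger one had no name, and it held 140.1 CPM of CNTN2, 348 of CNTNAP2 and 34.1 of CNTN1. With only the dividing IPC-like cluster of the cells, CNTN2 had a ratio of 1.08 and CNTNAP2 one of 0.143, and 0 members were called higher and 7 lower, with 9.83% and 17.6% of all genes called in that run. The high CNTN2 level of IPC-like cells was therefore that of the EBF2-led cluster.

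Cajal-Retzius-like barcodes, which correspond by their markers to the reelin-secreting early neurons of the marginal zone, held more of several members than excitatory neuron-like ones. In cells 6 members were called higher and 0 lower, with 11.0% and 6.86% of all genes called. CNTN4 was 10.5-fold higher (9.68 to 11.5), CNTNAP4 6.72-fold (5.23 to 8.61), CNTN2 5.34-fold (4.53 to 6.28) and CNTNAP5 4.84-fold (4.47 to 5.23). CNTN6 and CNTN5 were 4.50- and 2.32-fold higher, calls that 14 and 17 of 21 alternatives kept, and the ratio of CNTN2 fell to 1.13 without the highest doublet scores. In the well with the most Cajal-Retzius-like cells, CNTN6 stood at 162 CPM, against 17.2 in the other wells, CNTN2 at 17.0 against 127 and CNTNAP4 at 11.3 against 59.7. The call of CNTNAP4 in cells was kept in all 21 alternatives, with ratios from 2.66 to 8.66. In nuclei CNTN4, CNTNAP4 and CNTNAP5 were higher, at 6.04-fold (5.44 to 6.70), 7.08-fold (3.97 to 12.1) and 3.39-fold (3.09 to 3.72). CNTNAP2 at 0.364 (0.333 to 0.398) and CNTN6 at 0.232 (0.0279 to 0.849) were lower, and 16.4% and 8.04% of all genes were called. The nuclear ratios of CNTNAP4, CNTNAP2 and CNTN6 each stayed past 2-fold in 12 of 13 alternatives. CNTN1 was within 2-fold in both libraries, at 0.701 and 0.600. Among the counts of Cajal-Retzius-like barcodes, the fixed markers of that type summed to 2378 CPM in cells and 6641 in nuclei, beside RG markers at 1863 and 2187, excitatory neuron markers at 1372 and 1548, choroid markers at 1003 and 216 and hem markers at 357 and 1213. Their part in the levels was not tested.

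Choroid plexus-like and cortical hem-like barcodes come from the medial edge of the cortex by their markers. Against RG-like barcodes, choroid plexus-like cells had 4 members called higher and 0 lower, with 14.2% and 15.8% of all genes called. CNTN4 was 3.29-fold higher (2.94 to 3.69), CNTNAP4 3.19-fold (2.59 to 3.95), CNTN3 3.01-fold (2.82 to 3.22) and CNTN5 2.01-fold (1.64 to 2.45), a call that 14 of 22 alternatives kept. In nuclei 5 were higher and 0 lower, with 14.2% and 25.1% of all genes called. CNTN3 was 7.29-fold higher (6.73 to 7.91), CNTNAP4 5.46-fold, CNTN4 4.26-fold and CNTN5 4.00-fold. CNTN6 was the fifth, at 2.18-fold with an interval of 0.952 to 4.85 that included 1, and 14 of 17 alternatives kept its ratio past 2-fold. In both libraries the choroid plexus-like level of CNTN5 lay below the background, and those of CNTN3 and CNTN4 above it. The count called higher was 7 in cells under a 10% mitochondrial limit, with 14.7% of all genes, and up to 9 in nuclei, at Leiden resolutions 0.5 and 2, with 13.9% and 14.4%. The class was not the same in these runs: it held 1185 cells and 1306 and 963 nuclei, beside the 481 and 346 given above. No cortical hem-like class was named in the first 2 of them, and in the third it held 326 nuclei, beside 932. In cells 2 members were called lower over 700 transcripts and with background subtracted, with 15.8% and 19.3% of all genes.

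Cortical hem-like cells had 7 members called higher than RG-like ones and 0 lower, with 13.1% and 5.01% of all genes called, among them CNTNAP5 at 5.62-fold (4.93 to 6.42) and CNTNAP4 at 4.88-fold (4.09 to 5.86). CNTNAP5 stood at 274 CPM in the largest well of the hem-like cells and 70.5 in the others. Its ratio was 3.71 without the largest well of each class, and over all alternatives it ran from 3.37 to 99.6. The call of CNTNAP4 was kept in 17 of 19 alternatives. The hem-like levels of CNTN5, CNTNAP2 and CNTNAP5 in cells lay below the background, and those of CNTN3, CNTN4 and CNTN6 above it. In nuclei all 9 were called higher, with 11.8% and 9.57% of all genes called, from 2.36-fold for CNTN1 to 9.23-fold (7.10 to 12.1) for CNTNAP4. The hem-like levels of CNTN1, CNTN2, CNTN5, CNTNAP2 and CNTNAP5 in nuclei lay below the background, and that of CNTN3 above it. The count was 4 over 5000 transcripts and 5 at Leiden resolution 2, with 8.43% of all genes called higher in both runs. The hem-like class then held 84 and 326 nuclei, beside the 932 given above. The call was kept in every alternative run by 4 members, CNTN4, CNTNAP2, CNTNAP4 and CNTNAP5. CNTN1 kept it in 12 of 16, and CNTN2 turned to 0.788 without the highest doublet scores. Choroid markers summed to 10779.5 and 11415 CPM in the cortical hem-like classes, beside 18165 and 28581 in the choroid plexus-like ones, so the classes were not clean of each other's markers, and the part of this in the hem-like levels was not tested.

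Nuclei were then set beside cells, to ask which members were carried by nuclear RNA. The libraries differ in days, conditions and preparation as well as in compartment, and these cannot be told apart. Over all kept barcodes, 1 member was called higher in nuclei and 0 lower, with 0.558% and 38.2% of all genes called. The member was CNTN5, at 2.00-fold (1.92 to 2.08), and 7 of 10 alternatives kept its call. Of its 4661 counts in nuclei, 2419 came from an unnamed cluster of 783 nuclei and 417 from another of 175. Without the unnamed clusters of both libraries, its ratio was 1.06, and 0 members were called higher and 1 lower, CNTN2 at 0.357, with 0.667% and 32.1% of all genes called. That run was added after the data had been seen. CNTN4 was just inside the threshold at 1.89-fold (1.84 to 1.95), and CNTN6 had the lowest ratio, 0.664 (0.590 to 0.745). The members' median log2 ratio was 0.31 beside -0.66 over all genes.

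Within excitatory neuron-like barcodes, 3 members were called higher in nuclei and 0 lower, with 1.92% and 34.4% of all genes called. CNTNAP5 was 2.64-fold higher (2.50 to 2.79), CNTN4 2.44-fold (2.26 to 2.64) and CNTNAP2 2.26-fold (2.22 to 2.30). The calls of CNTNAP5 and CNTN4 were kept in 13 of 14 alternatives, but that of CNTNAP2 in only 5, with ratios from 1.43 to 2.48. CNTN1, CNTN5 and CNTN6 had ratios of 1.68, 1.70 and 1.46, CNTN3 one of 1.12, and CNTN2 and CNTNAP4 ratios of 0.677 and 0.548. The members' median was 0.75 on the log2 scale beside -0.61 over all genes.

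Within RG-like barcodes, 0 members were called higher in nuclei and 1 lower, with 1.33% and 18.1% of all genes called. CNTN6 was the lower one, with a ratio of 0.435 (0.235 to 0.768) from 17 and 49 counts, and 13 of 15 alternatives kept its ratio under the threshold. The count of members called lower ran from 0, at Leiden resolution 2, with at least 100 counts and without the largest well, to 7 with background subtracted, where 19.6% of all genes were called lower. In all, 8 of 9 members had ratios below 1, CNTN4 being at 1.06 (0.928 to 1.20). The median of the members was -0.72 beside -0.32 over all genes. Long genes were compared in the same way. Among 439 genes of 500 kb and over, the median log2 ratio was 0.18 within neuron-like and 0.00 within RG-like barcodes, and 16.9% and 2.05% were at least 2-fold higher in nuclei. The excitatory neuron-like class was 1 cluster in cells and 3 in nuclei, and RG-like was 1 cluster and 3.

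**Figure D3:**
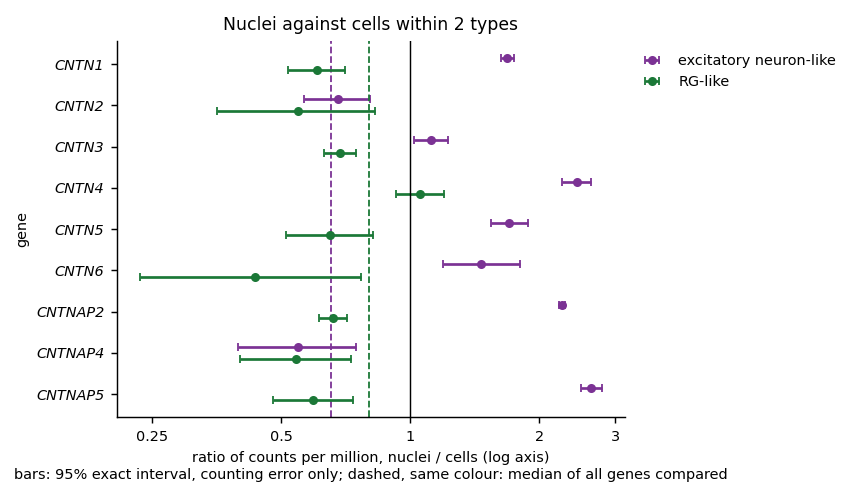
Ratio of CPM between nuclei and cells for each member (log axis), within excitatory neuron-like (purple) and RG-like (green) barcodes, with bars for the 95% exact interval of counting error and a dashed line of the same colour at the median of all genes. CNTNAP5 and CNTNAP2 lie at 2.64 and 2.26 in neuron-like but at 0.595 and 0.661 in RG-like barcodes.

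Each barcode was then thinned at random to a common depth of 1000 transcripts, and the share of barcodes with a member was read beside choroid plexus-like barcodes, a type that is not neuronal. Median depths before thinning were 7603 and 4379 transcripts in excitatory neuron-like and 6559 and 9752 in choroid plexus-like cells and nuclei. CNTNAP2 was found in 52.0% of excitatory neuron-like cells (49.4 to 54.5) and 68.6% of nuclei (66.7 to 70.4), against 15.8% and 11.0% of choroid plexus-like ones. In RG-like barcodes it was found in 12.9% and 9.04%, no more than in choroid plexus-like ones, so no expression was read from these shares. CNTN1 was found in 22.5% and 29.2% of excitatory neuron-like barcodes and in 2.70% and 1.73% of choroid plexus-like ones. CNTN4 was found in 31.4% and 28.7% of Cajal-Retzius-like barcodes and in 8.73% and 14.2% of choroid plexus-like ones, which are no low type for this gene. CNTNAP5 was found in 19.5% and 45.4% of the former and 3.74% and 0.867% of the latter. CNTN3, for which IPC-like barcodes serve as the low type, was found in 26.4% and 38.4% of choroid plexus-like and 2.60% and 0.797% of IPC-like barcodes. In excitatory neuron-like barcodes, 2 members in cells and 3 in nuclei reached 10%, and without thinning 7 and 6 did. How many of all genes reached 10% was not counted, so no trait of the members is read from these numbers. Without thinning, CNTNAP2 was found in 87.9% and 90.2% of excitatory neuron-like and 60.3% and 54.9% of choroid plexus-like barcodes.

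**Figure D4:**
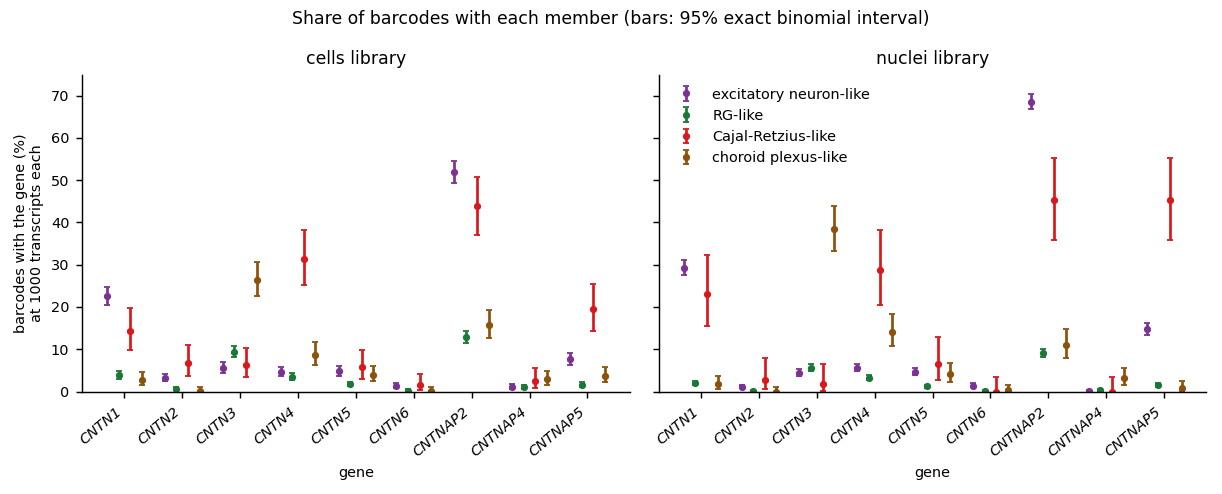
Share of barcodes with at least 1 transcript of each member after thinning to 1000 transcripts (vertical axis, percent), in cells (left) and nuclei (right), for 4 types in colour with 95% exact binomial intervals. CNTNAP2 in excitatory neuron-like barcodes is the highest point of both panels, at 52.0% and 68.6%, and the brown choroid plexus-like points are high for CNTN3.

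Within the excitatory neuron-like class, 3 nuclear clusters divided the family. The cluster led by OPCML, CDH7 and CDH13 held 633 CPM of CNTN1, 235 of CNTN4, 401 of CNTNAP5, 111 of CNTN3 and 27.1 of CNTN6. The cluster led by KCNQ5, SLC24A2 and MYO5B held 388, 20.3, 60.6, 22.0 and 1.76 CPM of the same genes. The third cluster, led by PRDM8, EYS and DISP3, held 155, 48.6, 222, 12.5 and 4.17. CNTNAP2 differed least, at 2470.3, 1914 and 1862 CPM in that order, and CNTN2 ran the other way, at 5.08, 15.6 and 28.5. The clusters were described after they had been formed on the same nuclei, and no test is attached.

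Pairs of members in the same excitatory neuron-like barcode were counted after thinning. CNTN1 and CNTNAP2 were found together in 10.1% of cells and 20.4% of nuclei, near the products of their shares, 11.7% and 20.1%. CNTN4 and CNTN6, which lie close together on chromosome 3, were found together in 0.400% of cells (0.147 to 0.869) and 0.674% of nuclei (0.393 to 1.08), above products of 0.0583% and 0.0780%. CNTN4 and CNTNAP5 were found together in 0.934% and 1.82%, above 0.353% and 0.829%. Of all 36 pairs, 3 in cells and 11 in nuclei had an interval above the product, and 0 had one below it. The products were taken over the whole class and not within its clusters, whose levels of these genes differed in nuclei, and pairs of other genes were not counted, so no link between members is read from these shares.

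Over clusters, the correlation of log2(CPM + 1) is a description only, since clusters share a library and background. Every cluster also had the same weight, whatever its size. The smallest in cells held 33 barcodes, all from 1 well, with CNTNAP4 at 195 CPM. CNTN1 and CNTNAP2 had r = 0.76 over the 23 clusters of the cells and 0.90 over the 19 of the nuclei, and CNTN4 and CNTN6 had 0.86 and 0.66. CNTN2 and CNTN3 had -0.59 and -0.42. Among 13319 genes of the cells and 9158 of the nuclei, the gene most like CNTN1 was DSCAML1 (0.91) in cells and SLC8A3 (0.97) in nuclei. The most like CNTNAP2 was SEMA6D (0.87) in cells and RALYL in nuclei, and RALYL had rank 3 in cells (0.86). CNTN2 was closest to CACNA2D1 (0.89) in cells and EBF2 (0.92) in nuclei, CNTN4 to ROBO3 (0.86) and CSMD1 (0.88), CNTN5 to PCDH15 (0.92) and GRIK1 (0.87), and CNTNAP5 to KCND2 (0.87) and DSCAM. CNTN3 was closest to GMDS-DT (0.83) in cells and to C6orf118 (0.91) in nuclei. CNTN6 was closest to RGS9 (0.92) and CNTNAP4 to AP2M1 (0.86) in cells.

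**Figure D5:**
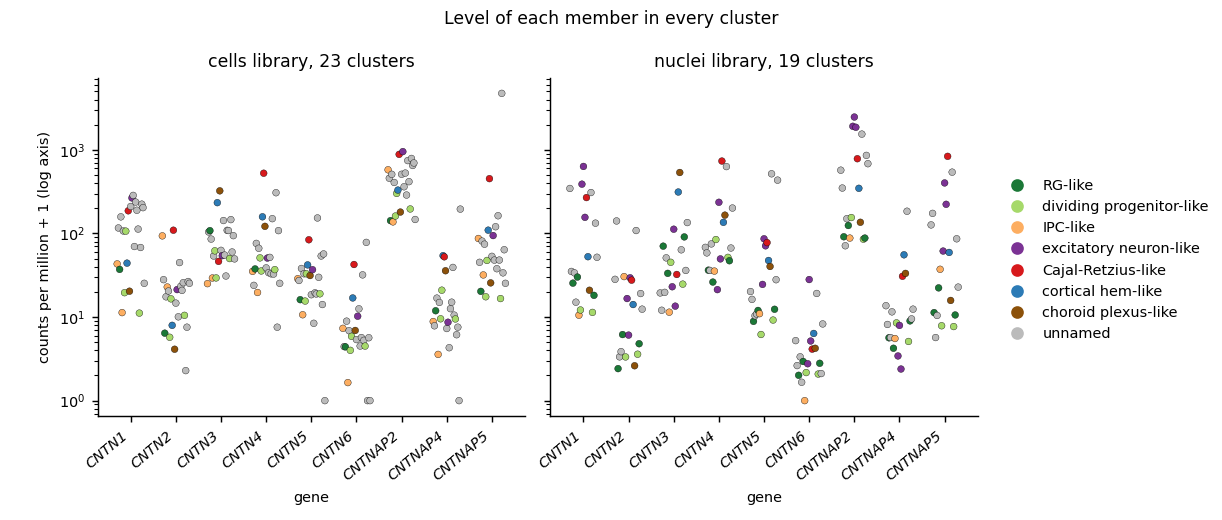
Level of each member in every cluster of the cells (left, 23 clusters) and nuclei (right, 19 clusters), as CPM + 1 on a log axis, with 1 point per cluster coloured by type and grey for unnamed clusters. An unnamed cluster of the cells holds CNTNAP5 at 4741, above every named cluster.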

How the data were processed

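Split-seq was run on cells and on nuclei of H9 cerebral organoids. The authors aligned and counted the reads against GRCh38 by the pipeline of Parse Biosciences, and the files they deposited hold unnormalised counts of transcripts per barcode and gene, before any selection of barcodes. The 9 genes and all lists were chosen with earlier results of these data known. The rules that name clusters and 4 of the comparisons, each made in both libraries, were set after the clusters had been seen.

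Counts were scaled to 10000 per barcode and logged, and 2000 variable genes (without family and partner genes), 30 principal components, 15 neighbours and Leiden resolution 1 gave the clusters (scanpy 1.11.5, igraph 0.11.9, Python 3.11.15, numpy 2.4.6, scipy 1.17.1). A type name needed at least 3 and over 50% of its fixed markers at 1.5 times the other barcodes and in 10% of the cluster, and no well with over 70% of it. Ratios carry exact (Clopper-Pearson) intervals given the summed count, shares exact binomial ones, at 95% and for counting error only. The ratio script was tested on simulated data. Named genes were the 9 members, the other family genes, the partner list and the 3 genes most like each member over clusters, with at least 1000 counts; some of these are counted but not reported here by name. Sequences came from RefSeq tables. Alternatives changed the limits, clustering, background, thinning, sub-libraries, wells and unnamed clusters.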

Additional observations from a re-analysis of the deposited data

Results flagged for a closer look

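For 6 members, the ratio of nuclei to cells lay on one side of 1 in excitatory neuron-like barcodes and on the other in RG-like ones, with both intervals clear of 1, and the difference between the types was not tested. How many of all genes did the same was not counted, so no trait of these members is read from it. In neuron-like and RG-like barcodes, 16.9% and 2.05% of genes of 500 kb and over were at least 2-fold higher in nuclei. The ratios in neuron-like and RG-like barcodes were 1.68 and 0.606 for CNTN1, 1.12 and 0.686 for CNTN3, and 1.70 and 0.649 for CNTN5. They were 1.46 and 0.435 for CNTN6, 2.26 and 0.661 for CNTNAP2, and 2.64 and 0.595 for CNTNAP5. Over the alternatives, the neuron-like ratio ran from 0.734 to 1.46 for CNTN3 and from 0.950 to 2.49 for CNTN6, so its direction turned for these 2 members. RG markers summed to 1478 CPM in neuron-like cells and 417 in neuron-like nuclei, and the part of this in the ratios was not tested.

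Unnamed clusters, which entered no comparison between types, held some members above every named type. In cells, a cluster of 101 barcodes led by CNTNAP5, PAX3 and DCT held 4741 CPM of CNTNAP5, 10.5 times the highest named type. A single well gave 75.2% of its barcodes, and CNTNAP5 stood at 4383 CPM in that well and 5596 in the others, with 8.06% of the counts from 1 barcode. DCT, a melanocyte enzyme, was at 323 CPM there, and PAX3, a dorsal neural tube and neural crest factor, at 991.

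In nuclei, CNTN2 stood at 140.1 CPM in the unnamed cluster led by EBF2 and PLXNA4. A cluster of 783 nuclei led by NXPH1, EBF1 and UNC5C held 107 CPM of CNTN2, 516 of CNTN5 and 183 of CNTNAP4. It held 148 CPM of GAD1 and 66.4 of GAD2, which make the inhibitory transmitter GABA, but also 84.8 of SLC17A6, a vesicular transporter of the excitatory transmitter glutamate, and 0.64 of DLX2, a forebrain interneuron factor, beside 416 of RELN and 410 of EBF3. GAD1 was found in 25.9% and SLC17A6 in 26.4% of its nuclei. A cluster of 175 nuclei led by PAX3 held 433 CPM of CNTN5.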

How the results depend on the processing

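No paired analysis was possible because each library is 1 sample and its barcodes carry no replicate number. The planned comparison of inhibitory neuron-like barcodes could not be run, since no cluster got that name. Another 9 alternatives could not be run because a type was then not named: Leiden resolution 0.5 for Cajal-Retzius-like and cortical hem-like in both libraries and for IPC-like in nuclei, clustering seed 1 and the 10% mitochondrial limit for cortical hem-like cells, and over 5000 transcripts and family genes among the variable genes for Cajal-Retzius-like nuclei. Counts of members called higher moved by no more than 1.5 times in 202 of 224 runs, and counts called lower in 185 of 224. Single ratios moved by over their counting interval in 634 of 2016 runs. Of 66 called ratios 5 crossed 1, in 6 of 1170 runs, and of 51 ratios not called 19 did, in 61 of 846. Detection shares moved beyond their binomial interval in 99 of 144 runs. The cause of a change was not tested. The barcodes in a class and the share of all genes called also changed between runs, as given above for some of them. The counts of called members below therefore show how the calls depend on the settings and are not read as results about the members.

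A called ratio crossed 1 for CNTN3 between IPC-like and neuron-like cells, at 1.61 over 2000 and 1.83 over 5000 transcripts. Between Cajal-Retzius-like and neuron-like cells it did for CNTN6, at 0.852 over 5000 transcripts, and for CNTN5, at 0.684 without the highest doublet scores. In nuclei it did for CNTN2, at 0.987 between IPC-like and neuron-like (Leiden resolution 2) and 0.788 between hem-like and RG-like (without the highest doublet scores).

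Of neuron-like against RG-like, the members called lower in cells were 0 as a mean over barcodes and without the largest well, and 0 to 1 with a sub-library left out. In nuclei they were 1 over 5000 transcripts, without the highest doublet scores, at Leiden resolution 2 and with background subtracted. Of nuclei against cells over all kept barcodes, members called higher were 0 over 700 transcripts, as a mean over barcodes and without unnamed clusters, and 2 over 5000 transcripts, and members called lower were 1 without unnamed clusters. Within neuron-like barcodes, members called higher were 1 as a mean over barcodes, and members called lower were 1 under the 10% mitochondrial limit, without the highest doublet scores, as a mean over barcodes and with background subtracted. Within RG-like barcodes, members called lower were 0 at Leiden resolution 2, with at least 100 counts and without the largest well, 2 over 700 and 2000 transcripts, under the 10% limit and as a mean over barcodes, 3 over 5000 transcripts and without the stress-led clusters, and 7 with background subtracted. Before these changes, 1 was called lower, with 18.1% of all genes.

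Of IPC-like against neuron-like cells, members called lower were 5 over 700 transcripts and under the 10% limit, 4 over 5000 transcripts and as a mean over barcodes, and 7 with only the dividing cluster, and members called higher were 0 over 5000 transcripts and with only the dividing cluster. In nuclei, 0 were called higher over 700 transcripts, without the highest doublet scores, at Leiden resolution 2, with clustering seed 1, as a mean over barcodes and without the largest well, and 0 to 1 with a sub-library left out. Of Cajal-Retzius-like against neuron-like, 3 were called higher in cells without the highest doublet scores, and in nuclei 5 as a mean over barcodes, with 1 called lower without the highest doublet scores. Of choroid plexus-like against RG-like cells, members called lower were 2 over 700 transcripts and with background subtracted, 1 over 2000 transcripts, as a mean over barcodes and without the largest well, and 0 to 1 with a sub-library left out, and 7 were called higher under the 10% limit. In nuclei, 8 were called higher over 5000 transcripts and 9 at Leiden resolutions 0.5 and 2, and 1 lower as a mean over barcodes, and 0 to 1 with a sub-library left out. Of cortical hem-like against RG-like, 1 was called lower in cells over 5000 transcripts, and in nuclei 4 were called higher over 5000 transcripts and 5 at Leiden resolution 2. Without thinning, 7 members in cells and 6 in nuclei were found in at least 10% of neuron-like barcodes.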
